A study of Mus musculus with 16 samples.

Results

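Neuropeptide precursor genes of the mouse cortex, 10 in number, were followed on Affymetrix mouse genome 430 2.0 arrays: Adcyap1, Tac1, Penk, Cort, Crh, Cartpt, Sst, Npy, Nppc and Cck. Their probe sets were found by gene symbol in the platform annotation, and 12 probe sets carried one of the symbols. Adcyap1 and Tac1 had 2 probe sets each. All 10 genes passed the filter on dim probe sets, which used the mean over all 16 arrays, with and without KCl. They are therefore 10 of the 13915 genes tested and of the 18193 genes named on the array.

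The cells were dissociated cortical neurons of C57BL/6 mouse embryos taken at embryonic day 16.5. In the c-Fos shRNA groups, lentivirus with an shRNA against c-Fos was applied for 6 h on day 5 in vitro, and the neurons received KCl for 0, 1, 3 or 6 h on day 7. The control shRNA groups received lentivirus with an shRNA against firefly luciferase, a gene that mice lack, and the same 4 KCl times. Polybrene at 6 µg per ml and the silencing of activity on day 7 were common to all 8 groups, including both 0 h groups. Each group had 2 arrays, 16 in all. Each arm had 1 lentivirus, so a second hairpin against c-Fos was not compared, and RNA was taken from whole cultures with all their cell types. Replicates are biological per the labels, which mention no separate dissections, so the p-values cover only the spread among these arrays.

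Neuropeptides are cut from larger precursor proteins by prohormone convertases, stored in dense-core granules, and released mainly during strong or repeated firing. Most act on G-protein-coupled receptors, while C-type natriuretic peptide acts on a membrane guanylyl cyclase. In the mouse cortex Sst, Npy, Cort and Tac1 are made mainly by classes of inhibitory interneurons, Cck by interneurons and by many excitatory neurons, and Adcyap1 mainly by excitatory neurons. A raised KCl concentration depolarises neurons and lets calcium in, and calcium-activated factors such as CREB, which binds the cAMP response element (CRE), then act on promoters. The somatostatin promoter is a textbook case of a CRE-bearing promoter. c-Fos is a subunit of AP-1, which binds a different element.

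Because 8 of the members moved together with KCl, the windows around the starts of all members that had one were searched for these elements. RefSeq promoter windows of build GRCm38.p6, from 250 bases before to 50 bases after the annotated start, were available for 8 of the 10 members (9 windows). Penk and Crh, which were among the 8 that moved together, had none. Npy and Cck, which were outside those that moved together, had windows, so the counts below mix both kinds. The full CRE, spelled TGACGTCA, was present in the windows of Cartpt, 112 bases before the start, and Sst, 48 bases before it. It occurred in 1.79% of all 32851 windows of this length. The shorter form TGACG, or CGTCA on the other strand, is contained in the full CRE at both ends and was present in 6 members (Adcyap1, Cartpt, Cck, Cort, Sst and Tac1), against 20.8% of all windows. The AP-1 element, spelled TGANTCA on both strands, was present in 0 of the 8 members with a window and in 7.81% of all windows. The TATA box letters TATAAA were searched on both strands and were present in 13.6% of all windows. Among the members they were present in the windows of Nppc, 29 bases before the start, and of a second start of Adcyap1. Both of these matches lay on the strand of the gene. A match describes the letters only, and binding was not measured on these arrays.

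The windows of 4 members are printed 5′ to 3′ on the strand of the gene: Cartpt and Sst for the full CRE, Nppc for the TATA box and for its difference between the shRNA arms, and Cck because it holds the short CRE form and was not called for KCl in either arm. Capitals mark those letters. The windows lie at chr13:99900634-99900933 on the minus strand (Cartpt), chr16:23890795-23891094 on the minus strand (Sst), chr1:86670524-86670823 on the minus strand (Nppc) and chr9:121495645-121495944 on the minus strand (Cck).
Cartpt: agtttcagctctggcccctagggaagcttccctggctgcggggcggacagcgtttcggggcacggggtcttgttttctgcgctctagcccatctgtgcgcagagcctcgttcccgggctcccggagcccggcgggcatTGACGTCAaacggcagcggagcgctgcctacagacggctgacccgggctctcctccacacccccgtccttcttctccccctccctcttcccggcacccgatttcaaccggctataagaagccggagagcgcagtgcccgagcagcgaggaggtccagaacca
Sst: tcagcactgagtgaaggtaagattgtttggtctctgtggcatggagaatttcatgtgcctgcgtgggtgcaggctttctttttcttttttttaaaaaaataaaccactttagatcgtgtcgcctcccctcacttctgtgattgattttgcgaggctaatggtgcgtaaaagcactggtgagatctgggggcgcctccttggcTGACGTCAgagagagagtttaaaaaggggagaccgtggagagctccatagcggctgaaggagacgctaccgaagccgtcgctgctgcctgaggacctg
Nppc: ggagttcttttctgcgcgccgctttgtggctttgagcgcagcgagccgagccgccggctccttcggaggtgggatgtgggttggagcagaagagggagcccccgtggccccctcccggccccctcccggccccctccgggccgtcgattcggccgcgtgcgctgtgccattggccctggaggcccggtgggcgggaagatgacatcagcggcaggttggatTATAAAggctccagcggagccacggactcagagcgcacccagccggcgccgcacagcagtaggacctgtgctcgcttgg
Cck: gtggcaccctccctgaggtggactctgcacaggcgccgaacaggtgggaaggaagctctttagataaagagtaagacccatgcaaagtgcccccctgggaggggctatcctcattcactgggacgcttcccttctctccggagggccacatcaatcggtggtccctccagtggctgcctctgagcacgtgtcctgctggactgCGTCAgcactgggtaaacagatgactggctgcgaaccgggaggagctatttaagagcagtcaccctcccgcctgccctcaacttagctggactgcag

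The targeted gene was checked first. Fos had 134.9 ± 23.6, 8675 ± 1340, 4030 ± 377 and 3241 ± 140 intensity units at 0, 1, 3 and 6 h of KCl in the c-Fos shRNA arm (mean ± SD, n = 2). In the control arm it had 246.1 ± 20.5, 14680 ± 60.5, 13470 ± 233 and 11930 ± 44.5. Its normalized log2 level was lower with c-Fos shRNA at all 4 times, by limma adjusted p-values between 5.22e-07 and 0.000242. Fos was still strongly induced under the knockdown, with a log2 change of 4.45 at 6 h of KCl against 0 h. Array medians ran from 104.75 to 118.56 units, and replicate arrays correlated with each other at 0.9906 to 0.9939. The labelled cell type was checked against its markers, each ranked by its brightest probe set among all probe sets other than controls. The neuronal markers Tubb3 and Snap25 lay at the 99.1 and 98.9 percentiles. Markers of other cells were present too: the astrocyte markers Slc1a3 and Aldoc lay at 96.6 and 97.1, Olig1 of the oligodendrocyte lineage at 97.4 and the progenitor marker Sox2 at 96.6. These were among the brighter members of their lists. In the same lists the astrocyte markers Gfap and S100b lay at 48.4 and 38.9, the oligodendrocyte marker Mog at 19.4 and the progenitor marker Eomes at 51.5. Of 7 microglial markers Csf1r, at the 56.7 percentile, was the one above the filter on dim genes, and of 6 vascular and fibroblast markers Col1a2, Col3a1 and Kdr were above it.

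KCl raised most of the neuropeptide genes in both arms, and none was called lower. At 6 h against 0 h, 8 of 10 were called higher in the c-Fos arm and 9 of 10 in the control arm. Calls are at an adjusted p under 0.05 (Benjamini-Hochberg, over all 13915 genes) in one limma fit. The shares of all tested genes called higher at 6 h were 16.1% in the c-Fos arm and 16.7% in the control arm, and the shares called lower were 24.9% and 27.3%. The median log2 change of the members was 1.93 in the c-Fos arm and 1.96 in the control arm, against medians over all genes of -0.06 and -0.07. At 3 h, 8 of 10 were higher in each arm, where 9.92% and 11% of all genes were called higher and 18.3% and 19.3% lower with c-Fos and control shRNA. The genes called at 3 h were identical in both arms (Adcyap1, Cartpt, Cort, Crh, Nppc, Penk, Sst and Tac1), and all of them were called again at 6 h. Npy was the ninth at 6 h, called with control shRNA. The members were chosen with earlier results of these data known, so their number is a description.

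At 1 h fewer were called: Adcyap1, Nppc and Sst with c-Fos shRNA and Adcyap1 with control shRNA. The shares of all genes at 1 h were 1.96% higher and 1.4% lower with c-Fos shRNA, and 2.29% higher and 0.826% lower with control shRNA. With the replicate number as a block, 5 members were called higher at 1 h in each arm, namely Adcyap1, Crh, Cartpt, Sst and Nppc, where the block called 4.09% of all genes higher in the c-Fos arm and 4.51% in the control arm. Without either of the c-Fos shRNA 1 h arrays 1 member was called in that arm (Nppc), and without either of the control shRNA 1 h arrays none was called in that arm. Bulk RNA cannot separate a change in the number of cells of a type from a change of RNA per cell.

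**Figure D1:**
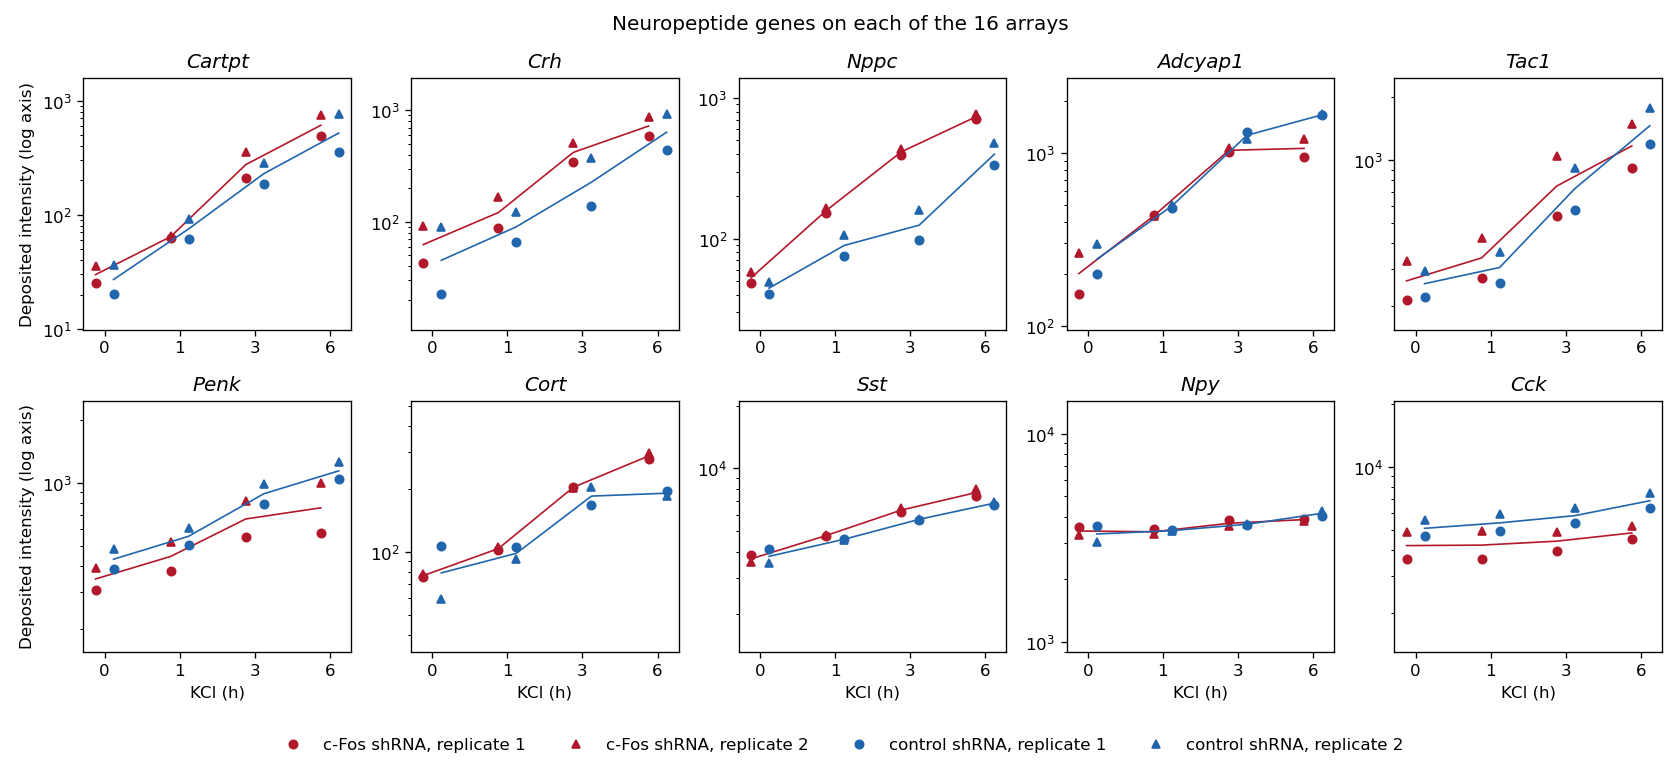
Deposited intensity (log axis) of the representative probe set of each gene on all 16 arrays, by hours of KCl on an evenly spaced axis; red is c-Fos shRNA and blue control shRNA, circles are replicate 1 and triangles replicate 2, and lines join group means. Cartpt, Crh and Nppc rise over the whole course in both arms, while the Npy points stay between 3029 and 4267 units.

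Cartpt, which encodes the CART peptides known from feeding and reward circuits, had the largest log2 change of the 10 members at 6 h in each arm in this fit. With c-Fos shRNA its probe set 1422825_at gave intensities of 25.3 and 35.3 before KCl, 62.9 and 65.5 after 1 h, 211 and 357 after 3 h, and 491 and 752 after 6 h. With control shRNA it gave intensities of 20.3 and 36.1 before KCl, 61.9 and 91.3 after 1 h, 186 and 281 after 3 h, and 357 and 758 after 6 h. The arrays of successive times did not overlap in either arm, and the arms overlapped at all 4 times. The log2 change at 6 h was 3.81 ± 0.34 (standard error, here and for all log2 values) with c-Fos shRNA (limma adjusted p = 3.43e-06) and 3.68 ± 0.34 with control shRNA (adjusted p = 3.48e-06). Mean intensity at 6 h was 20.5 times that at 0 h in the c-Fos arm and 19.8 times in the control arm. Adding 16 units makes the log2 changes of genes this dim at 0 h smaller than these ratios. The ratios divide by dim 0 h readings, so they are imprecise. At 1 h the changes of 0.83 and 1.08 were not called (adjusted p = 0.365 and 0.154), and with the replicate block both were (adjusted p = 0.00645 and 0.000737).

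Crh, which encodes corticotropin-releasing hormone, had the largest standard error of the members. Its probe set 1457984_at gave intensities of 42.2 and 92.3 before KCl, 87.5 and 168 after 1 h, 345 and 512 after 3 h, and 594 and 880.1 after 6 h with c-Fos shRNA. The readings were 22.6 and 90.3 before KCl, 66.1 and 123 after 1 h, 138 and 374 after 3 h, and 439 and 921 after 6 h with control shRNA. Replicate 2 was the higher array in 8 of 8 groups, by a median log2 difference of 0.79, and the widest gap was at 0 h with control shRNA. The log2 change at 6 h was 3.27 ± 0.55 with c-Fos shRNA (adjusted p = 0.000435) and 3.43 ± 0.55 with control shRNA (adjusted p = 0.000254). At 3 h it was 2.50 (adjusted p = 0.00412) and 1.97 (adjusted p = 0.0157). The control change at 3 h was not called without control shRNA 0 h replicate 1 (1.26, adjusted p = 0.158) or without control shRNA 3 h replicate 2 (1.30, adjusted p = 0.155). At 1 h the changes of 0.81 and 0.75 were called with the replicate block alone (adjusted p = 0.0136 and 0.0226).

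Nppc, the precursor gene of C-type natriuretic peptide, rose in both arms and differed most between them. With c-Fos shRNA, 1422790_at gave intensities of 48.3 and 57.5 before KCl, 152 and 164 after 1 h, 394 and 434 after 3 h, and 709 and 766 after 6 h. With control shRNA it gave intensities of 40.5 and 48.9 before KCl, 75.0 and 107 after 1 h, 98.1 and 159 after 3 h, and 333 and 476 after 6 h. The c-Fos shRNA arrays lay above the control arrays at 1, 3 and 6 h without overlap, and the 0 h arrays overlapped in deposited intensity. On the normalized log2 scale the 0 h arrays were separate too, at 6.04 and 6.18 with c-Fos shRNA against 5.83 and 6.00 with control shRNA. That difference at 0 h was not called. The log2 changes at 1, 3 and 6 h were 1.33, 2.67 and 3.50 with c-Fos shRNA (standard error 0.20 each, adjusted p = 0.00233, 1.47e-06 and 1.57e-07). In the control arm they were 0.81, 1.23 and 2.84 (adjusted p = 0.0577, 0.000546 and 4.68e-07). The control change at 1 h was called with the replicate block (adjusted p = 0.0013).

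Adcyap1, which encodes the peptide PACAP, was the one member called at 1 h in both arms. Its representative probe set 1423427_at gave intensities of 153 and 263 before KCl, 438 and 429.8 after 1 h, 1012 and 1067 after 3 h, and 944 and 1203 after 6 h with c-Fos shRNA. It gave intensities of 198 and 298 before KCl, 484 and 504 after 1 h, 1326 and 1215 after 3 h, and 1657 and 1679 after 6 h with control shRNA. Each time was separate from the one before it in the control arm, while the 3 h and 6 h arrays of the c-Fos arm overlapped. The log2 changes at 1, 3 and 6 h were 1.01 ± 0.19, 2.30 and 2.35 with c-Fos shRNA (adjusted p = 0.0102, 2.76e-06 and 1.62e-06) and 0.93 ± 0.19, 2.35 and 2.74 with control shRNA (adjusted p = 0.0176, 1.94e-06 and 3.6e-07). The other probe set gave 1.06, 1.98 and 1.63 with c-Fos shRNA and 1.42, 2.64 and 2.72 with control shRNA, all of them called. The 1 h calls were lost without replicate 1 at 0 h of the same arm (0.70, adjusted p = 0.12 with c-Fos shRNA; 0.66, adjusted p = 0.195 with control shRNA) and without either 1 h array of the same arm (adjusted p = 0.0532 to 0.113).

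Tac1 encodes substance P and neurokinin A, and Penk the enkephalins, ligands of opioid receptors. For Tac1, 1416783_at gave intensities of 213 and 327 before KCl, 272 and 424 after 1 h, 538 and 1047 after 3 h, and 919 and 1484 after 6 h with c-Fos shRNA. The values were 221 and 296 before KCl, 257 and 363 after 1 h, 578 and 918 after 3 h, and 1197 and 1778 after 6 h with control shRNA. Replicate 2 was higher in 8 of 8 groups, the 0 and 1 h arrays overlapped in both arms, and all 6 h arrays lay above all 0 h arrays. Its log2 change at 6 h was 2.12 ± 0.34 with c-Fos shRNA (adjusted p = 0.000349) and 2.49 ± 0.34 with control shRNA (adjusted p = 8.28e-05), and at 3 h 1.50 in each arm (adjusted p = 0.00564 and 0.00504). The other Tac1 probe set never exceeded 19.8 units and was not tested.

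For Penk, 1427038_at gave intensities of 305 and 392 before KCl, 378 and 522 after 1 h, 548 and 821 after 3 h, and 577 and 998 after 6 h with c-Fos shRNA. The readings were 387 and 479 before KCl, 504 and 609.9 after 1 h, 794 and 988 after 3 h, and 1039 and 1254 after 6 h with control shRNA. Here too replicate 2 was higher in 8 of 8 groups, and within each replicate number the c-Fos array was the lower at every time. The log2 change at 6 h was 1.16 ± 0.24 with c-Fos shRNA (adjusted p = 0.00173) and 1.43 ± 0.24 with control shRNA (adjusted p = 0.000334). At 3 h, the c-Fos arm changes of Tac1 and Penk were not called without c-Fos shRNA 0 h replicate 1 (Tac1 1.26, adjusted p = 0.0577; Penk 0.87, adjusted p = 0.0622) or without c-Fos shRNA 3 h replicate 2 (Tac1 1.05, adjusted p = 0.0668; Penk 0.71, adjusted p = 0.0829). The Tac1 change at 3 h with control shRNA was not called without control shRNA 3 h replicate 2 (1.18, adjusted p = 0.054).

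Sst and Cort encode somatostatin and cortistatin, related peptides of inhibitory interneurons that share receptors. For Sst, 1417954_at gave intensities of 3828 and 3554 before KCl, 4743 and 4797 after 1 h, 6203 and 6431 after 3 h, and 7401 and 7941 after 6 h with c-Fos shRNA. It gave intensities of 4093 and 3513 before KCl, 4602 and 4554 after 1 h, 5691 and 5719 after 3 h, and 6709.6 and 6934 after 6 h with control shRNA. Each KCl time was separate from the one before it in both arms. Its log2 changes at 1, 3 and 6 h were 0.34 ± 0.07, 0.74 and 1.02 with c-Fos shRNA (adjusted p = 0.0159, 8.3e-06 and 4.79e-07) and 0.23 ± 0.07, 0.54 and 0.79 with control shRNA (adjusted p = 0.131, 8.5e-05 and 2.38e-06). Among the 8 genes called at 6 h in both arms these were the smallest fold changes, measured with the smallest standard error. At 1 h the c-Fos change was not called without c-Fos shRNA 0 h replicate 2 (0.26, adjusted p = 0.168) or 1 h replicate 1 or 2 (adjusted p = 0.103 and 0.0778), and the control change was called with the replicate block (adjusted p = 0.0227).

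For Cort, 1449820_at gave intensities of 75.4 and 78.3 before KCl, 102 and 105 after 1 h, 205 and 202 after 3 h, and 279 and 296 after 6 h with c-Fos shRNA. The readings were 106 and 59.1 before KCl, 105 and 91.8 after 1 h, 167 and 204 after 3 h, and 196 and 185 after 6 h with control shRNA. The times were fully separated with c-Fos shRNA, while with control shRNA the 3 h and 6 h arrays overlapped and the 0 h arrays spanned the 1 h arrays. The log2 change at 6 h was 1.75 ± 0.19 with c-Fos shRNA (adjusted p = 1.51e-05) and 1.16 ± 0.19 with control shRNA (adjusted p = 0.000301).

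Npy, the gene of neuropeptide Y, moved little. Its probe set 1419127_at gave intensities of 3577 and 3258 before KCl, 3480 and 3291 after 1 h, 3849 and 3589 after 3 h, and 3915 and 3829 after 6 h with c-Fos shRNA. Its readings were 3601 and 3029 before KCl, 3439 and 3418 after 1 h, 3664 and 3689 after 3 h, and 4034 and 4267 after 6 h with control shRNA. All 6 h arrays lay above the 0 h arrays of their arm, and in the c-Fos arm the 0 and 1 h arrays overlapped, as did the 3 and 6 h arrays. At 6 h the log2 change was 0.17 ± 0.09 with c-Fos shRNA (adjusted p = 0.165, and 0.0417 with the replicate block) and 0.28 ± 0.09 with control shRNA (adjusted p = 0.023). The control call was lost without control shRNA 0 h replicate 2 (0.14, adjusted p = 0.252), 6 h replicate 1 (0.30, adjusted p = 0.0586) or 6 h replicate 2 (0.26, adjusted p = 0.1). The test of the difference between the arms did not call Npy.

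Cck encodes cholecystokinin, a peptide of both inhibitory and excitatory cortical neurons. For Cck, 1419473_a_at gave intensities of 3622 and 4862 before KCl, 3609.8 and 4930.0 after 1 h, 3969 and 4892 after 3 h, and 4491 and 5184 after 6 h with c-Fos shRNA. Its values were 4646 and 5548 before KCl, 4916 and 5915 after 1 h, 5392 and 6323 after 3 h, and 6347 and 7466 after 6 h with control shRNA. Replicate 2 was higher in 8 of 8 groups, and within each replicate number the c-Fos array was lower at every time. The log2 change at 6 h was 0.18 ± 0.17 with c-Fos shRNA (adjusted p = 0.433) and 0.38 ± 0.17 with control shRNA (adjusted p = 0.0811), neither called. With the replicate block both were called (adjusted p = 0.0146 and 2.74e-05), which made 10 of 10 members higher at 6 h in each arm, where the block called 21.7% of all genes higher in each.

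**Figure D2:**
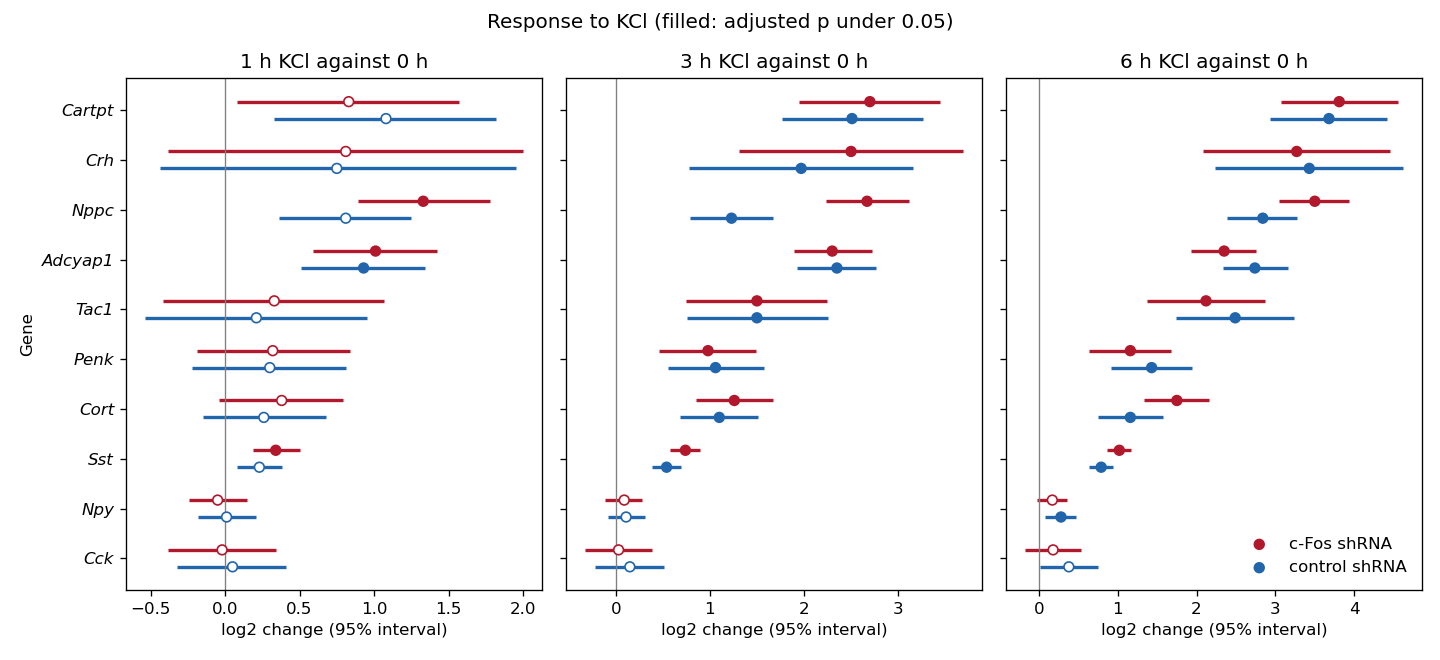
Log2 change at 1, 3 and 6 h of KCl against 0 h for each gene, c-Fos shRNA in red above control shRNA in blue; bars are 95% intervals of the limma fit and filled points are called at an adjusted p under 0.05. At 3 h the same 8 genes are filled in both arms, and Npy and Cck stay near 0.

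Some markers of the cell types in these cultures were also called for KCl. At 6 h, 16.1% of all genes were called higher and 24.9% lower in the c-Fos arm, and 16.7% and 27.3% in the control arm. Of 15 GABAergic interneuron markers 12 were tested, and at 6 h 6 were called higher in the c-Fos arm and 5 in the control arm, with none lower. Gad1, the gene of a GABA-synthesising enzyme, changed by 0.75 in the c-Fos arm and 0.40 in the control arm, and the interneuron transcript Dlx6os1 by 1.61 and 1.72. Both were singled out after their values were seen. The summed intensity of the 13 interneuron markers on the array was 26036 to 26178 after 6 h of KCl, against 19814 to 21107 before it, in the c-Fos arm. In the control arm it was 24266 to 26220 after 6 h, against 21567 to 22009 before KCl. None of the markers was at 0, and Pvalb was below the filter. The median log2 change of the 12 tested markers at 6 h was 0.19 and 0.15. It was 1.93 and 1.96 for the neuropeptide genes and -0.06 and -0.07 over all genes. The 9 excitatory neuron markers had 3 called higher at 6 h in the c-Fos arm and 2 in the control arm, with none lower and medians of 0.12 and 0.09. Their summed intensity was 34196 to 34905 after 6 h of KCl, against 26872 to 29296 before it, with c-Fos shRNA, and 38669 to 39025 after 6 h, against 33602 to 33938, with control shRNA. Of 8 astrocyte markers 1 was called lower at 6 h in each arm. Their summed intensity at 6 h was 19238 to 22824, against 22741 to 27719 at 0 h, with c-Fos shRNA, where the ranges overlapped, and 21257 to 24662, against 25336 to 30358, with control shRNA. The part of these shifts in the neuropeptide changes was not tested.

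Between the shRNA arms, 0, 1, 1 and 4 of the 10 members were called at 0, 1, 3 and 6 h. At 0 h none of 10 was called (lowest adjusted p = 0.261; at an unadjusted p under 0.05, 0 of 10), where 12% of all genes were higher and 10.3% lower with c-Fos shRNA. At 1 h Nppc was higher, where 10.8% of all genes were higher and 10% lower. At 3 h Nppc was again the one member called, where 12.4% of all genes were higher and 10.9% lower. At 6 h Nppc and Cort were higher and Adcyap1 and Cck lower with c-Fos shRNA, where 13.4% of all genes were higher and 10.4% lower. At 0, 1 and 3 h the members' shares were at or below these. At 6 h they were above them, but by counts of 2 of 10 each way. The Cort and Cck calls among these lay at the threshold (limma adjusted p = 0.0494 and 0.0497), so the 6 h shares are a description only. The median difference of the members was 0.01, 0.02, 0.09 and 0.05 at 0, 1, 3 and 6 h, against 0.02, 0.02, 0.01 and 0.02 over all genes.

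Nppc was the member with the largest difference. At 3 h it had 394 and 434 units with c-Fos shRNA, against 98.1 and 159 units with control shRNA, a mean ratio of 3.22. The ratio was 1.18 before KCl, 1.74 after 1 h and 1.82 after 6 h. On the normalized log2 scale the differences over the 4 times were 0.19, 0.72, 1.63 and 0.85, with adjusted p-values of 0.576, 0.0252, 0.000114 and 0.00948. The 3 h call held in all 25 alternatives tried. The 1 h call was lost without c-Fos shRNA 1 h replicate 1 (adjusted p = 0.0811), c-Fos shRNA 1 h replicate 2 (0.102) or control shRNA 1 h replicate 1 (0.215), and the 6 h call without c-Fos shRNA 6 h replicate 2 (0.0508) or control shRNA 6 h replicate 1 (0.101).

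Whether the KCl change of Nppc itself differed between the arms was tested as an interaction, the change in the c-Fos arm minus the change in the control arm. At 3 h it was 1.44 ± 0.29 (95% interval 0.81 to 2.07), with an adjusted p of 0.0588 in the fit without a block and 0.00074 with the replicate block. It was also called without control shRNA 3 h replicate 2 (1.74, adjusted p = 0.0336) and with a pseudocount of 64 (1.25, adjusted p = 0.0355). At 6 h it was 0.66 (adjusted p = 0.331, and 0.0436 with the block). With the block, 1.98% of all genes had a higher interaction at 3 h and 5.73% at 6 h. In the fit without a block none of the 10 members was called for an interaction: at an unadjusted p under 0.05 there were 0 at 1 h, 1 at 3 h and 2 at 6 h. Of all genes, 0.00719% had a higher and 0.0359% a lower interaction at 1 h. At 3 h these shares were 0.129% and 0.273%, and at 6 h 0.453% and 0.783%.

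The other members called at 6 h differed by less. Adcyap1 had 944 and 1203 units with c-Fos shRNA, against 1657 and 1679 with control shRNA, and its log2 difference was -0.63 (adjusted p = 0.0305). The other Adcyap1 probe set gave -0.68 (adjusted p = 0.0177). The 2 probe sets differed in sign at 0 h, at 0.40 for the other and -0.23 for the representative, neither called. Their interactions at 6 h were -1.08 (adjusted p = 0.0892) for the other and -0.40 (adjusted p = 0.575) for the representative. The 6 h call of the representative probe set depended on the setting. That call was lost without further normalization (-0.64, adjusted p = 0.0539) and without c-Fos shRNA 6 h replicate 1 (-0.50, adjusted p = 0.177), control shRNA 6 h replicate 1 (-0.63, adjusted p = 0.114) or control shRNA 6 h replicate 2 (-0.64, adjusted p = 0.0959). Cort had 279 and 296 units with c-Fos shRNA, against 196 and 185 with control shRNA, and a log2 difference of 0.56 (adjusted p = 0.0494). Cck had 4491 and 5184 units with c-Fos shRNA, against 6347 and 7466 with control shRNA, and a log2 difference of -0.49 (adjusted p = 0.0497). The groups of Adcyap1, Cort and Cck did not overlap at 6 h, but the Cort and Cck calls sat at the threshold and were kept in 7 and 8 of 25 alternatives. The replicate block was among the alternatives that kept the calls of all these genes (limma adjusted p = 0.00265 for Adcyap1, 0.0127 for Cort and 5.69e-06 for Cck). Without control shRNA 6 h replicate 1, none of the 10 members was called at 6 h.

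Penk and Cck were lower with c-Fos shRNA at all 4 times by point estimate, before KCl as well. The representative probe set of Adcyap1 was also lower at all 4 times, by -0.23, -0.16, -0.28 and -0.63, while Crh and Nppc were higher at all 4. The differences at 0, 1, 3 and 6 h were -0.30, -0.27, -0.38 and -0.56 for Penk and -0.29, -0.35, -0.40 and -0.49 for Cck. With the replicate block, which removes the shared offset of replicate 2, all 8 of these differences were called, with adjusted p-values of 0.0314, 0.0485, 0.00747 and 0.000382 for Penk and 0.000865, 0.000154, 3.93e-05 and 5.69e-06 for Cck. The block also called Crh higher at 3 h (0.86, adjusted p = 0.00206), Sst higher at 6 h (0.18, adjusted p = 0.0248) and Tac1 lower at 6 h (-0.31, adjusted p = 0.023). Under the block 2, 3, 4 and 7 of the 10 members were therefore called between the arms at 0, 1, 3 and 6 h, where it called 38.8%, 37.8%, 40.4% and 41.5% of all genes in either direction. The members' shares were below these at 0 and 1 h, near them at 3 h and above them at 6 h. Summed excitatory neuron markers were also lower with c-Fos shRNA, at 26872 to 29296 units against 33602 to 33938 with control shRNA at 0 h, and at 34196 to 34905 against 38669 to 39025 at 6 h (9 genes). Of those 9 markers 3 were called lower at 0 h, and 1 higher and 1 lower at 6 h. Over all genes 10.3% were called lower at 0 h, and 13.4% higher and 10.4% lower at 6 h. Their part in the differences was not tested.

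**Figure D3:**
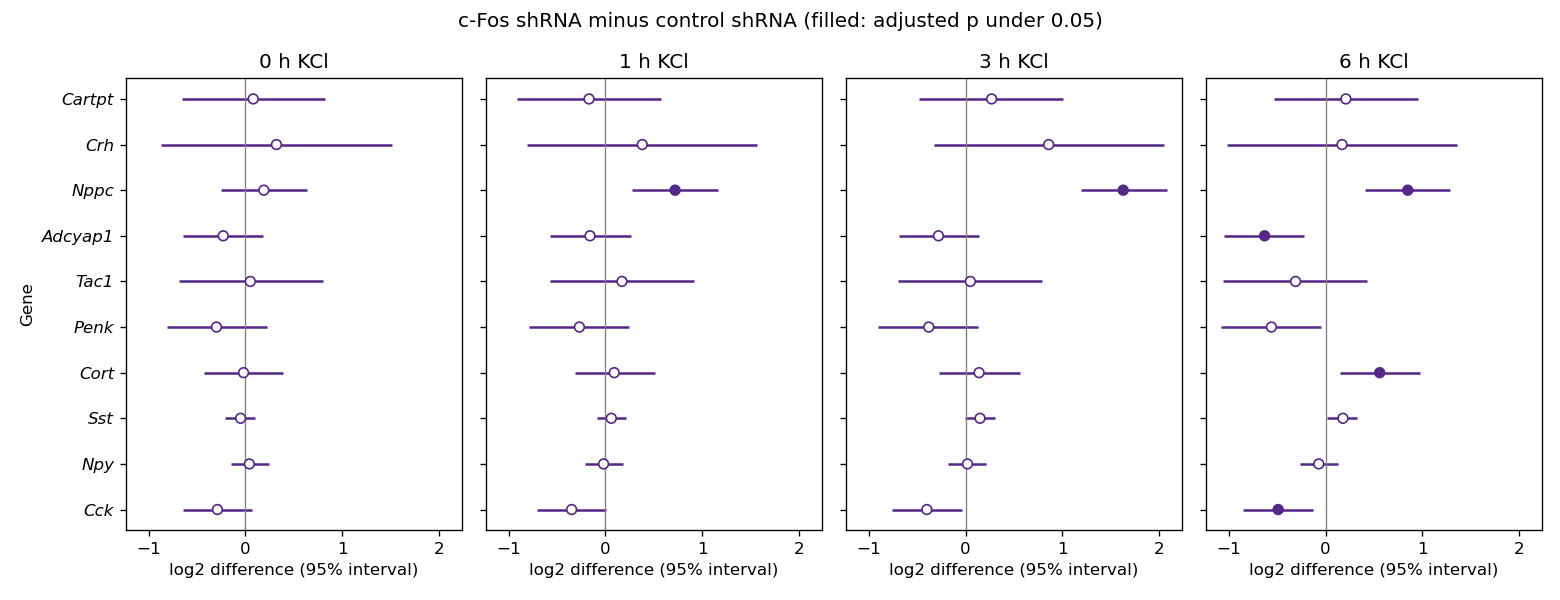
Difference in normalized log2 level (c-Fos shRNA minus control shRNA) at each KCl time, with 95% intervals of the limma fit; filled points are called at an adjusted p under 0.05. Nppc is filled at 1, 3 and 6 h and reaches 1.63 at 3 h, and 4 genes are filled at 6 h.

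Over the 8 group means, Pearson's r between the courses of 2 members ran from 0.72 (Penk and Nppc) to 0.99 over the 36 pairs without Cck, with a median of 0.92. Over the 9 pairs with Cck it ran from 0.12 (with Nppc) to 0.72 (with Penk), with a median of 0.42. These 8 means share their arrays and the KCl course, so r describes the shape of a course and no p is given. Among 3506 candidate genes (3507 for Npy and Cck) whose group means spanned at least 1 log2 unit, the closest to Adcyap1 were Clba1 (r = 0.993) and Bdnf (r = 0.9915), a neurotrophin gene. The closest to Tac1 was Lpar6 (0.9964), a lysophosphatidic acid receptor gene, and the closest to Penk was Ptger4 (0.9956), a prostaglandin E receptor gene. For Cartpt it was Ahctf1 (0.9923), for Crh Zfp335 (0.99), for Cort Cxcl10 (0.9905) and for Sst Wdr90 (0.9907). For Nppc it was Ess2 (0.9873), for Npy Wls (0.9885) and for Cck Znrf3 (0.995).

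Other genes of peptide signalling were read from lists chosen with earlier results known. Of 25 other neuropeptide precursor genes 17 were tested, and at 6 h of KCl 3 were higher and none lower in each arm. Of all genes, 16.1% were higher and 24.9% lower in the c-Fos arm, and 16.7% and 27.3% in the control arm. The counts of precursor genes called higher lay near these shares. The median log2 change of the 17 was 0.10 in the c-Fos arm and 0.25 in the control arm. The medians over all genes were -0.06 and -0.07. Prok2, the gene of prokineticin 2, changed by 2.02 ± 0.17 in the c-Fos arm and 2.82 ± 0.17 in the control arm, and Pnoc, the nociceptin precursor gene, by 1.63 ± 0.17 and 2.13 ± 0.17. Between the arms at 6 h both were lower with c-Fos shRNA, Prok2 by -0.73 (adjusted p = 0.00789) and Pnoc by -0.87 (adjusted p = 0.00283). Their interactions were not called (adjusted p = 0.137 and 0.377). Grp, which encodes gastrin-releasing peptide, was lower with c-Fos shRNA at all 4 times, by log2 differences of -2.05, -2.13, -2.53 and -2.84 (adjusted p between 0.000218 and 0.002), and was not called for KCl in either arm.

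Of 22 receptor genes for the members' peptides 15 were tested. At 6 h of KCl 3 were higher and 3 lower with c-Fos shRNA, and 4 higher and 2 lower with control shRNA. Of all genes, 16.1% were higher and 24.9% lower with c-Fos shRNA, and 16.7% and 27.3% with control shRNA. The medians of the 15 were -0.03 and 0.05, against -0.06 and -0.07 over all genes. Sstr2, a somatostatin receptor gene, rose by 2.77 ± 0.09 in the c-Fos arm and 2.54 ± 0.09 in the control arm. The neurokinin receptor gene Tacr3 rose by 2.02 ± 0.38 and 2.64 ± 0.38, and the neuropeptide Y receptor gene Npy1r by 1.11 ± 0.21 and 1.62 ± 0.21. The PACAP receptor gene Adcyap1r1 moved the other way, by -1.13 ± 0.21 in the c-Fos arm and -1.30 ± 0.21 in the control arm (adjusted p = 0.00085 and 0.000245). Npr3, which encodes the natriuretic peptide clearance receptor, was higher with c-Fos shRNA at all 4 times, by 1.10, 1.07, 1.53 and 1.04, and was not called for KCl. Npr2, the guanylyl cyclase receptor gene for the Nppc peptide, differed by 0.23 ± 0.32 between the arms at 6 h (adjusted p = 0.67) and was added after its values were seen.

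Of 13 prohormone processing and granule genes 12 were tested, and at 6 h 5 were higher and none lower with c-Fos shRNA, and 6 higher and 1 lower with control shRNA. Of all genes, 16.1% were higher and 24.9% lower with c-Fos shRNA, and 16.7% and 27.3% with control shRNA. Pcsk1, the gene of a prohormone convertase, rose by 5.40 ± 0.15 in the c-Fos arm and 5.00 ± 0.15 in the control arm. Pam, the gene of the enzyme that amidates peptide ends, rose by 1.16 ± 0.11 and 1.91 ± 0.11, and its interaction at 6 h was -0.75 (adjusted p = 0.0367). Scg2, a granin gene, rose by 1.64 ± 0.06 and 1.46 ± 0.06, and Vgf, a secreted granule protein gene, by 3.07 ± 0.06 and 4.93 ± 0.06. The Vgf interaction at 6 h was -1.86 (adjusted p = 8.68e-07), its level at 0 h being higher with c-Fos shRNA by 1.76 (adjusted p = 2.24e-08). Called between the arms at all 4 times were Cadps2, a granule release factor gene, higher by 0.57 to 0.93, its relative Cadps, at -0.45 to -0.34, and Scg2, at -0.58 to -0.36.

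**Figure D4:**
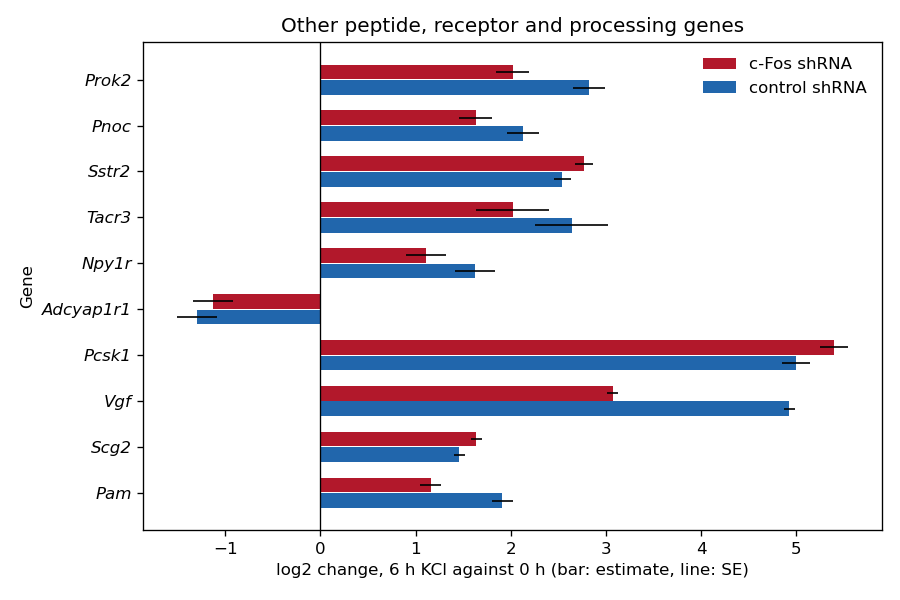
Log2 change at 6 h of KCl against 0 h for the other peptide, receptor and processing genes named by rule, c-Fos shRNA in red above control shRNA in blue; lines are standard errors. Pcsk1 reaches 5.40 in the c-Fos arm and 5.00 in the control arm, and Adcyap1r1 is the one gene below 0.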

How the data were processed

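Total RNA of 16 mouse cortical neuron cultures was biotin-labelled and hybridised to 1 Affymetrix 430 2.0 mouse array each. The deposited values are 1 linear intensity per probe set and array, and per the labels the authors used Affymetrix processing. The sources used here do not name the summarization software or its scaling. Values ran from 0.51 to 23935.63, no detection calls were analysed here, and precision is limited by 2 arrays per group.

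Array medians differed by 13.2%, above the 10% rule, so log2(intensity + 16) was quantile normalized. Of 45101 probe sets, 64 controls stayed out. Of the others, 34945 had 1 gene in the platform annotation, 932 several and 9160 none, and 34741 of the first matched RefSeq by gene number. Each gene took its brightest probe set by mean. Genes above the 30th percentile of the means of all probe sets other than controls (13915) were tested. limma 3.58.1 in R 4.3.3 (lmFit, eBayes with an intensity trend) fitted 8 groups with 8 residual degrees of freedom and 13 contrasts, adjusted by Benjamini-Hochberg within a contrast. All adjusted p-values are two-sided and from this fit unless another is named. Tables and figures used Python 3.11.15, pandas 2.3.3 and matplotlib 3.10.9.

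Same-numbered arrays deviated together: the replicate difference correlated across genes at 0.36 to 0.60 (median 0.48) over 28 pairs of groups. The label numbers were accepted as a pairing, and values with the replicate block are given where they change a call. The main fit does not use the pairing. Its standard errors at 6 h of KCl in the c-Fos arm were larger than with the block for Tac1 (0.34 against 0.10), Crh (0.55 against 0.19) and Cck (0.17 against 0.06). A member not called in the main fit is therefore not shown to be unchanged. Alternatives were the scaling, pseudocount, filter, probe set rule, intensity trend, replicate block and leaving out each array. On simulated arrays with 200 of 13915 genes changed, log2 changes of 1 were called in 82% of cases for 6 h KCl in the c-Fos arm, 77% for c-Fos against control shRNA at 6 h and 61% for the interaction at 6 h.

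The members, gene lists and marker lists were chosen with earlier results of these data known. By rule the text names all 10 members, Fos, the genes of a pathway list with the largest mean change called at 6 h in both arms (at most 4 each way) or called between the arms at all 4 times (at most 4), and for each member the genes with the highest correlation over group means. Markers of all neurons, astrocytes, microglia, oligodendrocyte lineage, progenitors and vascular cells were also read: of 8, 8, 1, 5, 6 and 3 tested, 3, 0, 0, 0, 1 and 0 were higher and 1, 1, 0, 0, 1 and 0 lower at 6 h of KCl with c-Fos shRNA. The shares of all genes in that contrast were 16.1% higher and 24.9% lower.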

Additional observations from a re-analysis of the deposited data

How the results depend on the processing

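Of 3250 values of the members under the alternatives, 3150 stayed on the same side of the threshold, 64 lost a call and 36 gained one. No value called in either setting changed direction, while 104 of the 3150, uncalled in both settings, changed sign. For KCl at 6 h, 491 of 500 stayed on the same side, and 1 of them, uncalled, changed sign. With the replicate block, which uses the pairing of the arrays, 5 members were called at 1 h of KCl in the c-Fos arm and 5 in the control arm, 2, 3, 4 and 7 between the arms at 0, 1, 3 and 6 h, and 1 each for the interaction at 3 and 6 h. Over all genes the block called 38.8%, 37.8%, 40.4% and 41.5% between the arms at these times. The members' shares were below those of all genes at 0 and 1 h, near them at 3 h and above them at 6 h. For the interaction the block called 1.98% of all genes higher at 3 h and 5.73% at 6 h. At 1 h of KCl it called 4.09% of all genes higher in the c-Fos arm and 4.51% in the control arm. The block changed no other count by more than 1.5 times. The 4 calls between the arms at 6 h became 1 without further normalization, and 2 with a pseudocount of 1, with no filter on dim genes and with every probe set tested. A pseudocount of 1 gave 2 calls at 1 h of KCl in the control arm, and a pseudocount of 64 gave 1 for the interaction at 3 h. Leaving out 1 array at a time gave 1 to 3 calls at 1 h of KCl in the c-Fos arm, 0 to 2 in the control arm, 0 to 1 between the arms at 1 h, 0 to 4 between the arms at 6 h, and 0 to 1 for the interaction at 3 h. Beyond their own construction, the causes of these shifts were not tested. Members dim at 0 h have understated log2 changes, and 2 arrays per group limit the precision.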
